A study of Rattus norvegicus with 15 samples.

Results

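Angptl4, G0s2, Lpl, Pnpla2 and Lipe encode 3 lipases and 2 of their protein inhibitors, and their transcripts were measured in the subfornical organ of the rat, a small sensory structure of the brain whose capillaries lack the blood-brain barrier. The 5 genes were chosen by name from the probe annotation, with earlier results of these same arrays known. They are 5 of 14217 named genes, and all probe sets assigned to them were taken, 6 of 31042 that are not controls. All 6 were bright enough to be tested. Lipe has 2 probe sets and the other genes have 1 each. Angptl4 and G0s2 were picked for how their levels differed between these groups, so their values are given as a description, without a test.

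The groups were water-deprived rats, rats deprived of food for 48 h and untreated controls, all male Sprague Dawley rats of 10 to 12 weeks. Each group has 5 arrays, and each array carried the pooled organs of 5 animals, 25 animals a group, so spread between single animals is not visible. The sources used here give no length of water deprivation, and the design text, read literally, has food withheld in every condition. Neuron and glia markers were present on the arrays, with 11 of 12 neuron, 10 of 10 astrocyte, 9 of 9 measured oligodendrocyte and 9 of 10 microglia markers above the filter on dim probe sets.

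The arrays fall into 2 sets by the mean log2 5′/3′ signal ratio of the Actb and Gapdh control probe sets. This ratio is a measure of RNA quality and of how fully transcripts were copied. Water-deprived arrays 1 and 2 and all 5 food-deprived arrays form the high set (-0.864 to -0.711), and water-deprived arrays 3 to 5 (-2.812 to -1.277) and all 5 controls (-1.675 to -1.245) form the low set. Water-deprived array 3 has the lowest ratio. No set holds both food-deprived and control arrays, so that comparison cannot be made within a set. Once the array set is a term of the model, water deprivation against control rests on the low arrays, water against food deprivation on the high arrays, and food deprivation against control on both, linked by the water-deprived arrays.

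Lipolysis runs in 2 places. Lipoprotein lipase, the product of Lpl, is held at the vessel wall and releases fatty acids from circulating triglyceride-rich particles; ANGPTL4, a secreted protein whose gene is induced by fasting in many tissues through PPAR nuclear receptors and glucocorticoids, inactivates it. Inside cells, adipose triglyceride lipase (Pnpla2) starts the breakdown of stored triglyceride, hormone-sensitive lipase (Lipe) acts on the diglyceride it leaves, and G0S2, a small protein, binds and inhibits adipose triglyceride lipase.

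The promoters of the 2 inhibitor genes are shown because these are the members picked for how their levels differed between the groups. They come from RefSeq (GRCr8), run 5′ to 3′ on the strand of the gene from 250 bases before to 50 after the annotated start, and carry in capitals every match on either strand to 7 short motifs. They are a core site of nuclear receptors such as PPARs (AGGTCA), a core site of the glucocorticoid receptor (AGAACA), the E-box (CACGTG), the GC box (GGGCGG), the TATA box (TATAAA), the CCAAT box, and the core of the hypoxia response element (ACGTG), whose letters also lie within the E-box. The Angptl4 window is chr7:15258632-15258931, minus strand, and the G0s2 window is chr13:107335899-107336198, minus strand.
Angptl4: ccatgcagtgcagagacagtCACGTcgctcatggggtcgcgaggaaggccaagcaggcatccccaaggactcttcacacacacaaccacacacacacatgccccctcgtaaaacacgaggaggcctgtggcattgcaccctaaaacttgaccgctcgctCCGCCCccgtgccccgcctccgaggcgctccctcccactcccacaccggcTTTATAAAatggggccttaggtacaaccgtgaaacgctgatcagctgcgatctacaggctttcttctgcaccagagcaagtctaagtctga
G0s2: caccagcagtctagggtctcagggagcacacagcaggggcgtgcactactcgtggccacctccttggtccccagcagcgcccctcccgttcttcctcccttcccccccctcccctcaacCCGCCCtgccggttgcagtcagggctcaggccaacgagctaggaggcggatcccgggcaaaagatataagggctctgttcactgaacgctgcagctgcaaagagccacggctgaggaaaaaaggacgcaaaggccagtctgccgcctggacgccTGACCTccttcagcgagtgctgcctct

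The Angptl4 window holds a TATA box on the given strand and another overlapping it on the opposite strand, with a GC box and a hypoxia response core on the opposite strand. The G0s2 window holds the nuclear receptor site on the opposite strand, after the start, and a GC box on the opposite strand. Among 33469 rat promoter windows of this length, 14.2% hold a TATA box, 33.1% a GC box, 19.3% the hypoxia response core and 16.2% the nuclear receptor site. The letters of the glucocorticoid receptor site (20.7% of windows), the E-box (6.4%) and the CCAAT box (37.5%) are in neither sequence. G and C make up 58.3% of the Angptl4 window and 63.7% of the G0s2 window, against a median of 51.7% over all windows. These matches are letters in a window and say nothing of binding. The Pnpla2 window (chr1:205982029-205982328, plus strand, 63.7% G and C) matched too and is not shown.

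Angptl4 was highest in food deprivation, intermediate in water deprivation and lowest in control. Its signal, on the linear intensity scale of the deposited table, was 70.0, 67.7, 71.1, 69.2 and 76.6 in water-deprived arrays 1 to 5, 103.2, 93.3, 92.1, 91.1 and 95.6 in food-deprived arrays 1 to 5, and 50.6, 74.6, 36.6, 48.8 and 35.9 in control arrays 1 to 5. Both deprived groups were tight and the controls were spread, with control array 2 standing well above the other controls. Group means were 70.9 ± 3.4 in water deprivation, 95 ± 4.9 in food deprivation and 49.3 ± 15.7 in control (SD, n = 5 each).

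Every food-deprived array lay above every control for Angptl4, the lowest of 91.1 against a highest control of 74.6. Of the 21729 probe sets tested, 9.84% separated food deprivation from control in this way upward, so the separation on its own is common on these arrays. Food deprivation exceeded control by 0.795 on the scale of log2(signal + 16) (SE 0.128), a 1.735-fold difference on that scale. Water deprivation exceeded control by 0.442 (SE 0.128, 1.359-fold), and these groups overlapped through control array 2, which lay above 4 of the water-deprived arrays. Every water-deprived array was below every food-deprived array, as in 2.05% of probe sets, with a difference of -0.353 (SE 0.128). Both differences against control share the control arrays.

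The fitted difference between array sets was small for Angptl4, at -0.057 (high minus low), but its SE was 0.185. It rests on the water-deprived arrays alone. Water-deprived arrays 1 and 2, of the high set, averaged 68.8, and arrays 3 to 5, of the low set, averaged 72.3. Fitted with the array set, food deprivation minus control was 0.853 (SE 0.225), water deprivation minus control 0.465 (SE 0.148) and water minus food deprivation -0.387 (SE 0.170). Within the high set, both water-deprived arrays were below all 5 food-deprived arrays, as were 11.4% of probe sets.

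G0s2 was highest in control and lower in both deprived groups. Its signal was 38.7, 33.5, 73.6, 45.9 and 35.4 in water-deprived arrays 1 to 5, 41.7, 56.7, 55.4, 55.5 and 56.4 in food-deprived arrays 1 to 5, and 87.2, 85.9, 87.3, 87.5 and 77.5 in control arrays 1 to 5. The controls were tight, and water-deprived array 3 stood far above the rest of its group. Means were 45.4 ± 16.5 in water deprivation, 53.1 ± 6.4 in food deprivation and 85.1 ± 4.3 in control (SD, n = 5 each).

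In water deprivation minus control, G0s2 had a log2 difference of -0.753 (SE 0.140, 1.686-fold lower), and every water-deprived array lay below every control, as in 0.368% of probe sets. Water-deprived array 3, at 73.6, came closest to the lowest control, at 77.5. Food deprivation was below control by a log2 difference of -0.552 (SE 0.140, 1.466-fold lower), again without overlap, as in 5.61% of probe sets. Water deprivation minus food deprivation was -0.201 (SE 0.140), and these groups overlapped. In bulk tissue, fewer cells of a type and less RNA per cell cannot be told apart.

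For G0s2 the fitted difference between array sets was larger, at -0.34 (SE 0.184). Water-deprived arrays 1 and 2 averaged 36.1 and arrays 3 to 5 averaged 51.6. Fitted with the array set, water deprivation minus control was -0.617 (SE 0.147), and the 3 low-set water-deprived arrays were all below the 5 controls, as in 1.92% of probe sets. Food deprivation minus control was -0.212 (SE 0.224) in that fit, under its SE, and it moved between -0.435 without water-deprived array 3 and -0.034 without water-deprived array 5. Water minus food deprivation was -0.405 (SE 0.169), with both high-set water-deprived arrays (33.5 and 38.7) below the lowest food-deprived array (41.7), a separation that 11.4% of probe sets show.

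**Figure D1:**
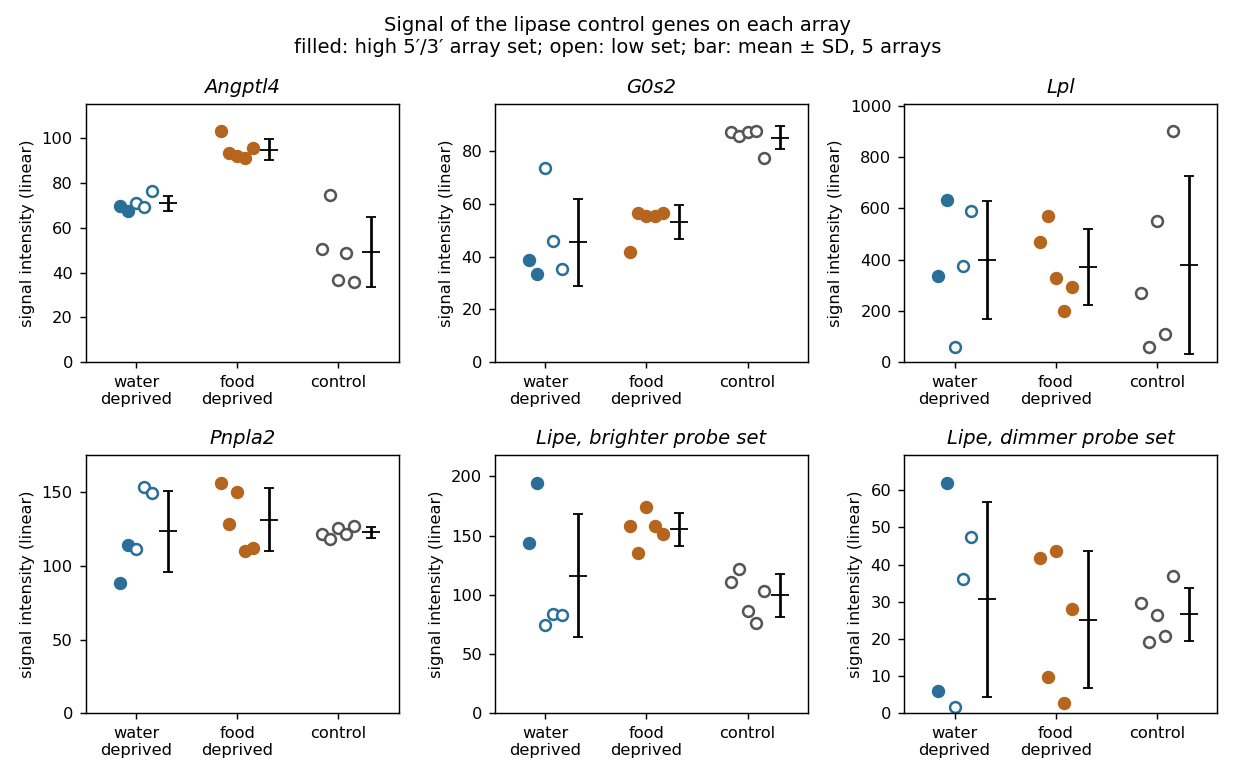
Signal intensity (linear axis from 0) of the 6 probe sets on each of 15 arrays, in water deprivation, food deprivation and control; filled points are high 5′/3′ arrays, open points low ones, and bars are the mean ± SD of 5 arrays. Angptl4 sits at 91.1 or more in all food-deprived arrays and at 74.6 or less in controls, G0s2 is at 77.5 or more in controls only, and Lpl spans 59.6 to 900.6 with no order by group.

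Markers of several cell types shifted in the same comparisons as the inhibitor genes. No microglia, choroid plexus or oligodendrocyte marker passed the limma test. Some vascular markers did pass it in food deprivation minus control, where 8.53% of all probe sets passed. Mural markers had 6 of 6 tested above 0 there (median 0.209), and 2 passed. Endothelial markers had 6 of 9 above 0 (median 0.097), and 1 passed. With the array set as a term these medians were 0.148 and -0.010, and 0 passed. Of 9 microglia markers tested, 9 were below 0 in water deprivation minus control (median log2 -0.399) and 0 of 9 passed the limma test at an adjusted p of 0.05; over all 11510 genes tested the median was 0. Their summed signal over all 10 markers ran from 826 to 1410 (median 1127) in water deprivation, from 1248 to 1578 (median 1390) in food deprivation and from 1029 to 1744 (median 1377) in control. In food deprivation minus control 6 of the 9 were above 0 (median 0.076), opposite in sign to G0s2. In the fit of 3 groups, choroid plexus markers shifted the other way from G0s2 in both comparisons, and 0 of 8 passed. Of 8 tested, 8 were above 0 in water deprivation minus control (median 0.559) and 7 in food deprivation minus control (median 1.033). Their summed signal had a median of 11013 in water deprivation, 9797 in food deprivation and 7890 in control, with overlapping ranges. With the array set as a term this shift turned round, to the same sign as G0s2. The choroid plexus median was then -0.210 in water deprivation minus control (1 of 8 above 0) and -1.214 in food deprivation minus control (0 of 8). The microglia medians in that fit were -0.235 and 0.214.

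Oligodendrocyte markers had the same sign as Angptl4 in food deprivation minus control, where 9 of 9 tested were above 0 (median 0.646), and in water minus food deprivation, where 9 of 9 were below 0 (median -0.756). In water deprivation minus control, where Angptl4 was at 0.442, 8 of the 9 were below 0 (median -0.232), and in each comparison 0 of 9 passed. Their summed signal ran from 5035 to 13835 (median 10155) in water deprivation, from 11501 to 16543 (median 15020) in food deprivation and from 5656 to 17005 (median 11346) in control. With the array set as a term the medians were -0.489 in water deprivation minus control, -0.032 in food deprivation minus control and -0.455 in water minus food deprivation. Over the 15 arrays, G0s2 had a correlation r with marker levels of 0.673 for microglia, -0.076 for oligodendrocytes and -0.582 for choroid plexus. For Angptl4 these were 0.141, 0.474 and -0.029. After removing group means they were 0.744, -0.185 and -0.765 for G0s2, and 0.426, 0.453 and -0.545 for Angptl4. In the other lists these ran from -0.623 (mural) to 0.626 (astrocyte) for G0s2 and from -0.347 (ependyma and tanycyte) to 0.646 (astrocyte) for Angptl4. In food deprivation minus control, 8 of 11 neuron markers (median 0.199) and 7 of 10 astrocyte markers (median 0.103) were above 0. In water minus food deprivation, 9 of 11 and 8 of 10 were below 0 (medians -0.239 and -0.222). In water deprivation minus control their medians were -0.013 and -0.038, and 0 passed in any comparison. With the array set as a term their medians in food deprivation minus control were 0.304 and 0.223. The part of microglia, oligodendrocytes, neurons and astrocytes in the Angptl4 and G0s2 results was not tested. Values with the choroid plexus level as a covariate are given with Lpl.

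None of the 3 lipase genes differed between groups at a limma adjusted p below 0.05, over all 21729 probe sets. For scale, 8.53% of probe sets passed in food deprivation against control (1037 higher and 817 lower), 0.00460% in water deprivation against control (1 probe set, and 1412 at an unadjusted p below 0.05) and 0.152% in water against food deprivation (33 probe sets). With the array set as a term, 0% passed in food deprivation against control (1879 at an unadjusted p below 0.05), 0.0276% in water deprivation against control and 0% in water against food deprivation.

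Lpl varied more than almost any other transcript, and it did so within every group. Its signal was 334.5, 632.6, 59.6, 373.7 and 587.9 in water-deprived arrays 1 to 5, 468.3, 571.5, 326.4, 199.0 and 291.7 in food-deprived arrays 1 to 5, and 269.6, 60.1, 549.0, 111.2 and 900.6 in control arrays 1 to 5. The highest of the 15 values was a control, and the lowest values were those of water-deprived array 3 and control array 2, side by side. Means were 397.6 ± 229.2 in water deprivation, 371.4 ± 148.0 in food deprivation and 378.1 ± 348.7 in control (SD, n = 5 each). The SD of log2 values within groups was 1.17 against a median of 0.24 over all probe sets, and only 56 of 21729 had a larger one.

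With that spread the group differences of Lpl have wide intervals. Water deprivation minus control was 0.30 (95% interval -1.071 to 1.670, limma adjusted p = 0.935), food deprivation minus control 0.434 (-0.936 to 1.804, adjusted p = 0.719), and water minus food deprivation -0.134 (-1.505 to 1.236, adjusted p = 0.945). Differences above 2-fold are inside each interval. All 3 changed sign when the array set was a term (-0.048, -0.435 and 0.387, with SE of 0.749, 1.138 and 0.858).

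Lpl tracked the markers of the choroid plexus, the secretory epithelium of the ventricles, which lies next to the subfornical organ. The summed signal of the 9 choroid plexus markers measured was 13445, 18566, 2462, 8803 and 11013 in water-deprived arrays 1 to 5, 11993, 14404, 9797, 6833 and 9490 in food-deprived arrays 1 to 5, and 7890, 3540, 10352, 5471 and 13852 in control arrays 1 to 5. The 3 arrays with the least Lpl, water-deprived array 3 and control arrays 2 and 4, were also the 3 with the smallest marker sum.

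Over the 15 arrays, log2 Lpl was compared with the mean log2 level of the 8 choroid plexus markers above the filter. This leaves out Kcnj13, and the other lists also hold only markers above the filter. Pearson r was 0.954 and Spearman rho 0.914. Each had a two-sided permutation p of 1e-05, the smallest that 100000 resamples can give (adjusted p = 8e-05 for both over 8 marker lists). For every list the resamples shuffled all arrays freely across groups and array sets, which may not be exchangeable. After removing group means r was 0.956 for choroid plexus markers. Pearson r was 0.894 without the 2 arrays farthest from the median, 0.859 in the 7 high-set arrays and 0.986 in the 8 low-set arrays. Single markers differed. Prlr (the prolactin receptor, r 0.966), Folr1 (a folate receptor, 0.950), Aqp1 (a water channel, 0.947) and Sostdc1 (a secreted BMP antagonist, 0.937) followed Lpl closely, Kl was at 0.907 and Kcne2 at 0.902, while Otx2 was at 0.742 and Ttr, the transthyretin gene, at 0.587. Kcnj13, a potassium channel, was at 0.316 with a signal below the filter.

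Of the other 7 lists, 4 related to Lpl at an adjusted permutation p below 0.05. Neuron markers ran against Lpl (r -0.786, adjusted p = 0.00116; rho -0.818, adjusted p = 0.00144; r -0.685 without the 2 farthest arrays), as did astrocyte markers (r -0.765, adjusted p = 0.00211; rho -0.789, adjusted p = 0.00172; -0.577 without the 2) and microglia markers (r -0.604, adjusted p = 0.0282; rho -0.786, adjusted p = 0.00172; -0.575 without the 2). Ependyma and tanycyte markers ran with it (r 0.635, adjusted p = 0.0224; rho 0.579, adjusted p = 0.0425), falling to 0.437 without the 2 farthest arrays. Mural (r 0.528, adjusted p = 0.0583; rho 0.468, adjusted p = 0.109), endothelial (r 0.262, adjusted p = 0.396; rho 0.289, adjusted p = 0.336) and oligodendrocyte markers (r -0.050, adjusted p = 0.859; rho -0.236, adjusted p = 0.397) did not pass by permutation. All marker levels of an array come from the same pooled RNA.

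The 3 genes whose profile was most like Lpl over the 15 arrays, among 11403 compared by Pearson r of log2 values, were Adipoq (r 0.993), Cldn2 (0.986) and Adamts1 (0.984). Adipoq encodes adiponectin, an adipocyte hormone, Cldn2 a claudin of leaky epithelia including the choroid plexus, and Adamts1 a secreted metalloprotease. Adipoq signal was 8.8, 12.2 and 29.5 in water-deprived array 3 and control arrays 2 and 4, the arrays with the least Lpl, and 173.6 in control array 5, the array with the most. Cldn2 was at 13, 26.2 and 77.9 in those 3 arrays and at 1369.1 in control array 5. Of the other 7 adipocyte markers measured, all 7 were below the filter in the mean, with Lep (leptin) between 1.4 and 12.9, Fabp4 between 0.5 and 19.1, Cidec between 0.8 and 3.8 and Plin1 between 6.2 and 31.2 over the 15 arrays.

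**Figure D2:**
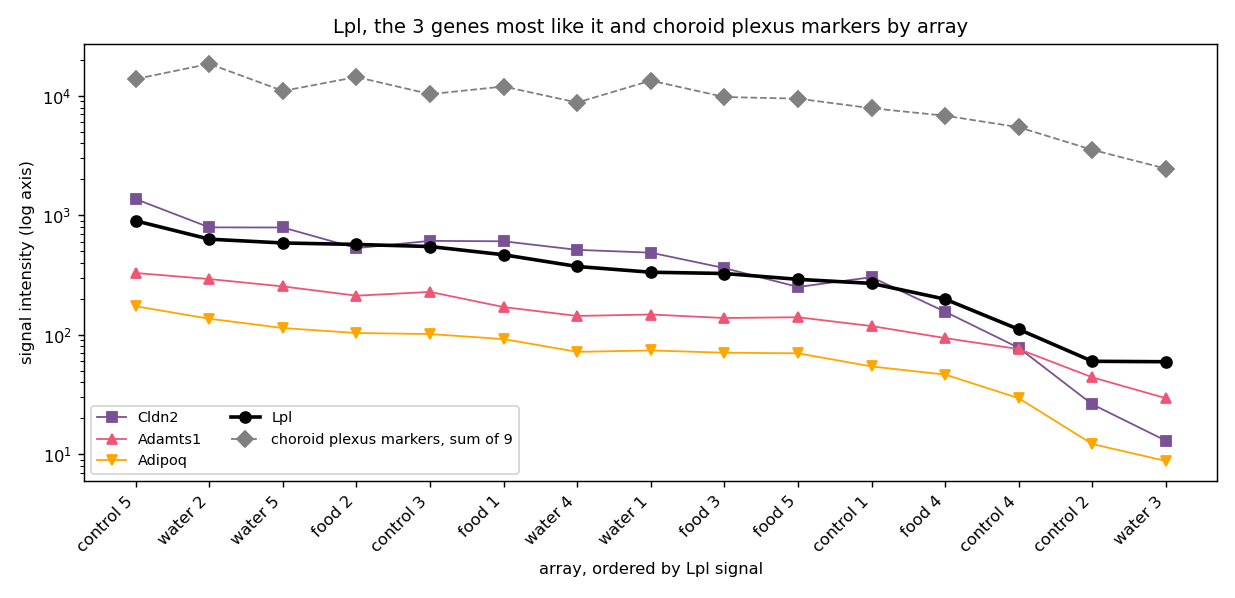
Signal intensity (log axis) of Lpl, its 3 closest genes and the sum of 9 choroid plexus markers on each array, with arrays ordered from the highest to the lowest Lpl. All 5 lines drop together, with Lpl at 900.6 in control array 5 and 59.6 in water-deprived array 3, and water-deprived, food-deprived and control arrays are mixed along the axis.

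With the choroid plexus marker level as a covariate, the SE of the Lpl differences shrank to 0.200 for water deprivation minus control (-0.178, limma adjusted p = 0.834), 0.202 for food deprivation minus control (-0.183, adjusted p = 0.576) and 0.197 for water minus food deprivation (0.005, adjusted p = 0.992). Angptl4 in that fit was 0.488 in water deprivation minus control, 0.854 in food deprivation minus control and -0.366 in water minus food deprivation. G0s2 was -0.681, -0.459 and -0.222 in the same comparisons. Both inhibitor genes had the same direction with and without this covariate, which was added after seeing the data. The part of the choroid plexus in their differences was not tested.

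Pnpla2 was close to level across the groups. Its signal was 88.7, 114.5, 111.3, 153.9 and 149.5 in water-deprived arrays 1 to 5, 156.5, 128.4, 150.0, 110.3 and 112.4 in food-deprived arrays 1 to 5, and 121.9, 118.3, 126.0, 121.4 and 127.2 in control arrays 1 to 5. The controls lay within a narrow band inside the range of both deprived groups. Means were 123.6 ± 27.6 in water deprivation, 131.5 ± 21.1 in food deprivation and 122.9 ± 3.6 in control (SD, n = 5 each). Water deprivation minus control was -0.016 on the log2 scale (95% interval -0.297 to 0.265, limma adjusted p = 0.985), food deprivation minus control 0.075 (-0.206 to 0.356, adjusted p = 0.768) and water minus food deprivation -0.091 (-0.372 to 0.190, adjusted p = 0.777). After adding the array set they were 0.139 (SE 0.131, adjusted p = 0.940), 0.463 (SE 0.200, adjusted p = 0.558) and -0.324 (SE 0.150, adjusted p = 0.494), and within water deprivation the high-set arrays averaged 101.6 and the low-set arrays 138.3.

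Lipe had a higher level in food deprivation on 1 of its 2 probe sets, without passing the test, and within water deprivation that signal was higher in the high-set arrays. On the probe set with the higher mean, the signal was 144.0, 194.7, 74.9, 84.3 and 83.3 in water-deprived arrays 1 to 5, 158.2, 135.6, 173.9, 158.3 and 151.4 in food-deprived arrays 1 to 5, and 111.1, 121.5, 86.3, 76.6 and 102.9 in control arrays 1 to 5. All food-deprived arrays were above all controls, and water-deprived arrays 1 and 2 lay with or above the food-deprived arrays while arrays 3 to 5 lay with the lower controls. Such a separation of food deprivation above control was seen in 9.84% of probe sets. Means were 116.2 ± 51.8 in water deprivation, 155.5 ± 13.8 in food deprivation and 99.7 ± 18.2 in control (SD, n = 5 each).

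Food deprivation minus control was 0.579 for this probe set (SE 0.199, 1.494-fold, limma adjusted p = 0.0793), water deprivation minus control 0.127 (SE 0.199, adjusted p = 0.911) and water minus food deprivation -0.452 (SE 0.199, adjusted p = 0.283). With only the 10 food-deprived and control arrays in the fit the first of these reached an adjusted p of 0.00564. Within water deprivation the probe set averaged 169.4 in the 2 high-set arrays and 80.8 in the 3 low-set arrays, a difference between sets of 0.925 (SE 0.169). All 3 differences changed sign when the array set was a term, with food deprivation minus control at -0.346 (SE 0.206, adjusted p = 0.639), water deprivation minus control at -0.243 (SE 0.135, adjusted p = 0.878) and water minus food deprivation at 0.102 (SE 0.155, adjusted p = 0.846).

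The second Lipe probe set did not show the same pattern. Its signal ran from 1.7 to 62.0 in water deprivation, from 2.8 to 43.7 in food deprivation and from 19.3 to 36.8 in control, with all groups overlapping. Water deprivation minus control was -0.082 (SE 0.398, limma adjusted p = 0.974) and food deprivation minus control -0.171 (SE 0.398, adjusted p = 0.831). The SD within groups was 0.71, with 395 of 21729 probe sets above it, so this probe set is a weak measure.

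**Figure D3:**
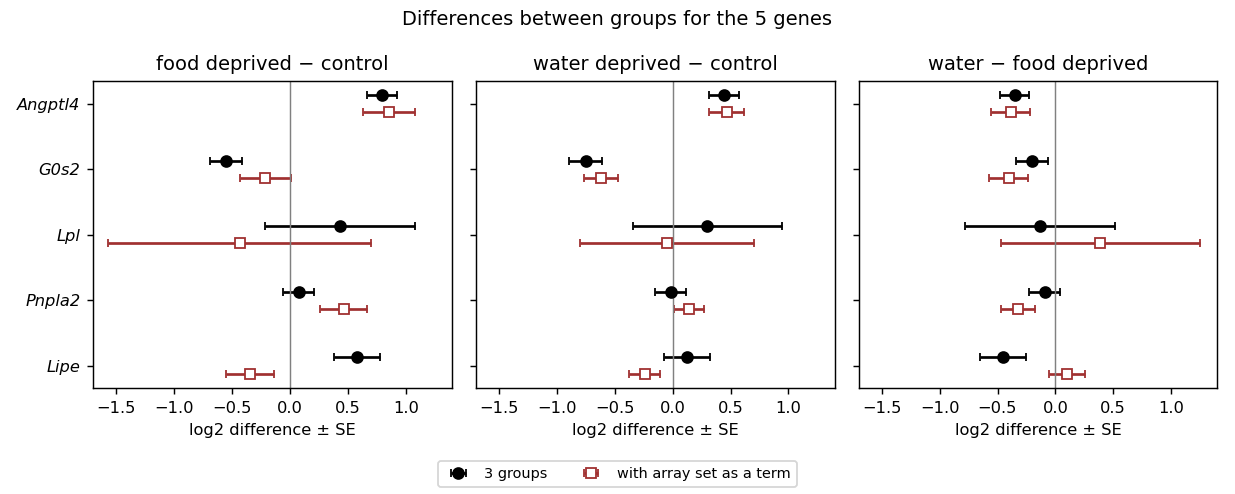
Log2 difference ± SE of each gene (the Lipe probe set with the higher mean) in food deprivation minus control, water deprivation minus control and water minus food deprivation; black points are the model of 3 groups and open squares the model that also holds the array set. Angptl4 keeps its differences (0.795 and 0.853 for food deprivation minus control), G0s2 keeps -0.753 and -0.617 in water deprivation, and Lpl and Lipe change side.

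The profiles most like those of the inhibitor genes were less close than those like Lpl. For Angptl4 they were Gnl3l (r 0.885), a nucleolar GTP-binding protein gene, Klf11 (0.870), a Krüppel-like transcription factor gene, and Eif4ebp1 (0.864), whose product represses translation initiation. Klf11 averaged 50.7 ± 8.8 in water deprivation, 78.5 ± 8.8 in food deprivation and 47.2 ± 26.0 in control (SD, n = 5 each), with control array 2 at 90.3, the same array that was high for Angptl4. After removing group means, r with Angptl4 was 0.897 for Klf11, 0.739 for Gnl3l and 0.424 for Eif4ebp1. For G0s2 the closest were Rgs17 (0.828), a regulator of G protein signalling, Cit (0.822), a citron kinase gene, and Col2a1 (0.822), a cartilage collagen gene, with r after removing group means of 0.662, 0.767 and 0.404. Cit and Rgs17 were at 219.0 and 171.0 in water-deprived array 3, the array that was high for G0s2 within its group.

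Around the 5 genes, 96 other genes of lipolysis and its control, among them fasting targets, were listed in 4 groups, and 68 were tested. In food deprivation against control 6 of 68 (8.82%) passed the limma test, 3 higher and 3 lower, a share close to the 8.53% of all probe sets. In water deprivation against control and in water against food deprivation 0 of 68 passed, and 0 passed in any comparison with the array set as a term.

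Among genes of lipolysis at the vessel wall, 13 of 20 on the array were tested, with a median log2 difference of -0.089 in water deprivation minus control (0 over all genes) and of 0.033 in food deprivation minus control (0.027 over all genes). Angptl6, a relative of Angptl4 that encodes another angiopoietin-like protein, averaged 33.0 ± 10.0 in food deprivation and 17.2 ± 4.9 in control, and rose by 0.547 on the log2 scale (SE 0.161, adjusted p = 0.0468); with the array set as a term it was at 0.219 (SE 0.268, adjusted p = 0.817). Apoe, the apolipoprotein E gene, rose by 0.305 (SE 0.090, adjusted p = 0.0463), though quantile normalization gave -0.056. Lmf2, a relative of the lipase maturation factor gene Lmf1, fell by 0.558 on the log2 scale (SE 0.156, adjusted p = 0.0391) and was at 0.005 with the array set as a term. Lmf1, whose product folds newly made lipoprotein lipase, was at -0.135 in water deprivation minus control and at -0.132 in food deprivation minus control. Gpihbp1, which anchors lipoprotein lipase on capillaries, Apoc2, its activating apolipoprotein gene, and Cd36, a fatty acid transporter gene, were below the filter; Gpihbp1 ran from 2.2 to 27.0 in water deprivation, 6.3 to 25.3 in food deprivation and 2.9 to 17.6 in control.

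Among genes of intracellular lipolysis and lipid droplets, 24 of 30 were tested, with a median of 0.008 in water deprivation minus control and 0.101 in food deprivation minus control. Of the 24, 18 were above 0 in food deprivation minus control, against 54.5% of all genes. Plin4, a perilipin of the droplet surface, was at 29.3, 24.4, 10.5, 4.4 and 7.8 in water-deprived arrays 1 to 5, 48.4, 32.9, 28.5, 23.1 and 34.5 in food-deprived arrays 1 to 5 and 14.6, 14.5, 15.7, 6.8 and 19.1 in control arrays 1 to 5. It rose in food deprivation against control by 0.71 (SE 0.208, limma adjusted p = 0.0463), and with the array set as a term it was at -0.157; the high-set water-deprived arrays lay near the food-deprived ones, as for Lipe.

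The direct partners of the intracellular lipases did not pass in limma. Abhd5, the activator of adipose triglyceride lipase that G0S2 counteracts, was at 0.102 in water deprivation minus control and 0.053 in food deprivation minus control. Hilpda, which encodes a hypoxia-inducible inhibitor of the same lipase, was at 0.290 (adjusted p = 0.752) and 0.344 (adjusted p = 0.110). Plin5, which holds lipases at the droplet, was at -0.031 and 0.270 (adjusted p = 0.193 in food deprivation), Plin2, a droplet coat gene, at 0.008 and 0.050, and Mgll, the lipase of the last step, at 0.278 and 0.280. The other tested probe set of Plin2 was at 0.173 and -0.075. Other tested probe sets of Mgll were at 0.037 and -0.47, and at 0.012 and 0.083. Plin1 was below the filter. When the array set was a term, food deprivation minus control was -0.302 (SE 0.238) for Abhd5, 0.082 (SE 0.217) for Hilpda, 0.027 (SE 0.212) for Plin5, 0.745 (SE 0.350) for Plin2 and 0.220 (SE 0.668) for Mgll, so that Abhd5 changed sign.

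Of 17 tested PPAR and fasting targets, 8 were above 0 in water deprivation minus control (median -0.033) and 9 in food deprivation minus control (median 0.0). Pdk4, a kinase gene that shuts off pyruvate oxidation in fasting, was at 0.239 (limma adjusted p = 0.833) and 0.423 (adjusted p = 0.204) on the probe set with the higher mean, which was at 0.775 (SE 0.352) in food deprivation with the array set as a term, while its other probe set, at 0.546, passed in food deprivation (adjusted p = 0.0418), lost the call without any array but food-deprived array 5, and was at -0.048 with the array set as a term. Cpt1a, the entry enzyme of mitochondrial fatty acid oxidation, was at 0.162 and 0.022, and its other probe set at 0.363 in food deprivation (adjusted p = 0.142). Klf15 was at -0.033 and -0.093, with its other tested probe set at 0.419 in food deprivation (adjusted p = 0.250). Txnip, an arrestin-like gene that responds to glucose, was at -0.215 and 0.180. Foxo1, a transcription factor restrained by insulin, fell in food deprivation by 0.916 on the log2 scale (SE 0.266, adjusted p = 0.0449), and was at -0.172 with the array set as a term. Of the PPAR genes, Pparg was at 0.315 and 0.470 (adjusted p = 0.806 and 0.205), Ppard at 0.053 and 0.058, and Ppara was below the filter. In food deprivation minus control the array set as a term moved Txnip to 0.615 (SE 0.216), Cpt1a to 0.094 (SE 0.267), Klf15 to 0.127 (SE 0.241), Pparg to -0.039 (SE 0.378) and Ppard to -0.138 (SE 0.163), with a change of sign for the last 3. In water deprivation minus control it moved Plin2 to 0.286, Hilpda to 0.185, Abhd5 to -0.040, Plin5 to -0.128, Pdk4 to 0.380, Txnip to -0.041, Pparg to 0.112, Klf15 to 0.055 and Ppard to -0.025. None of these partner genes passed the limma test in that fit.

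Among kinases and receptors that switch lipolysis, 14 of 17 on the array were tested, with medians of -0.014 in water deprivation minus control and 0.061 in food deprivation minus control. Prkaa2, a catalytic subunit of the energy sensor AMPK, averaged 22.0 ± 15.2 in food deprivation and 68.0 ± 37.5 in control (SD, n = 5 each), and fell by 1.122 on the log2 scale (SE 0.304, limma adjusted p = 0.0347); with the array set as a term it was at -1.396 (SE 0.542, adjusted p = 0.532).

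The 6 calls on the probe sets with the higher mean were close to the threshold. Leaving out any of the 10 arrays in turn ended the limma call of Plin4 and of Apoe. The Foxo1 call remained only without control array 2, the Lmf2 call only without food-deprived array 1, the Angptl6 call only without food-deprived array 3 or control array 2, and the Prkaa2 call only without food-deprived array 2 or control array 2 or 4. Adjusted p values ran from 0.0211 to 0.114 over these fits.

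**Figure D4:**
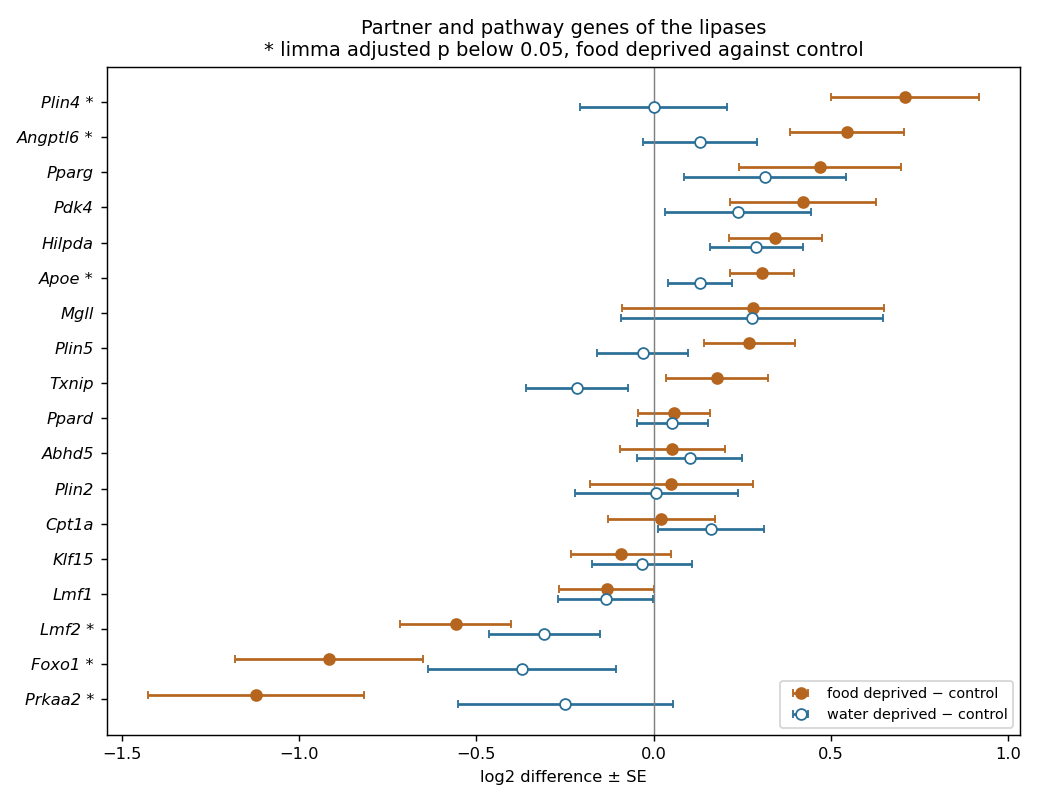
Log2 difference ± SE of 18 partner and pathway genes in food deprivation minus control (filled) and water deprivation minus control (open), ordered by the first; asterisks mark a limma adjusted p below 0.05 in food deprivation. Plin4 (0.71) and Angptl6 (0.547) stand at the top and Foxo1 (-0.916) and Prkaa2 (-1.122) at the bottom. The open points of Lmf1, Ppard and Mgll coincide nearly with the filled ones. Each gene is shown on its probe set with the highest mean, and other probe sets of Mgll differ from it.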

How the data were processed

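The authors deposited a linear signal intensity for each probe set of 15 Affymetrix arrays (1 colour); GCOS 1.2 is the program named in the submitters' processing notes. Tested on the table, every array has a trimmed mean of 100.0 (2% trimmed at each end), and it was used without further normalization as log2(signal + 16). Of 31042 probe sets that are not controls, 20826 have 1 gene symbol, 436 several and 9780 none. The 21729 whose mean log2 lay above the 30th percentile (5.11) were fitted in limma 3.58.1 (R 4.3.3) as 3 groups with a variance trend, and p values were adjusted by Benjamini-Hochberg over all of them at 0.05, with no minimum fold. A gene is read from its probe set with the highest mean. The members, partner genes and lists were chosen with earlier results of these arrays known. Named beyond the members were fixed partners, list genes that passed (up to 4 a list and comparison) and the 3 closest profiles of Angptl4, G0s2 and Lpl. The fit was tested on simulated data with independent noise for each probe set and no array-set effect. That test therefore says nothing of the array sets. Same-numbered arrays correlated between -0.361 and 0.366 in their deviations from group means. The main fit does not pair samples by number, though these correlations cannot show that same-numbered arrays shared no step. Alternatives are named in the closing section. Arrays give no counts, and their number limits the precision.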

Additional observations from a re-analysis of the deposited data

Results flagged for a closer look

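A sample far from the rest of its group was looked for in 72 groups of 5 arrays with Dixon's criterion (0.71), and 4 were found; chance gives about 1 in 20. For G0s2, food-deprived array 1 (41.7) lay below the other food-deprived arrays (55.4 to 56.7), and control array 5 (77.5) lay below the other controls (85.9 to 87.5). For Lpl, water-deprived array 3 (59.6) lay below the other water-deprived arrays (334.5 to 632.6). For Apoe, control array 5 (3328.4) lay below the other controls (3757.8 to 3861.1).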

How the results depend on the processing

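Angptl4 and G0s2 kept their direction in all 3 comparisons under every alternative run, though an offset of 64 lowered Angptl4 in food deprivation minus control to 0.499 and G0s2 in water deprivation minus control to -0.458, and the array set as a term took G0s2 in food deprivation minus control to -0.212. Apart from leaving out each array in turn, 231 values were recomputed under an alternative, and 180 were counted as unchanged. For the lipase genes this meant the same sign and the same call, whatever the size of the move. For Angptl4 and G0s2 it meant the same sign and a move below the SD within groups. For counts it meant a move of at most 1.5 times. Pnpla2 in food deprivation minus control, at 0.075 and at 0.463 with the array set, was among the 180. Counts of probe sets that passed are given for water deprivation minus control, food deprivation minus control and water minus food deprivation, in that order, where they moved over 1.5 times. Array weights gave 2, 5840 and 2744, only the 10 arrays compared 0, 4183 and 0, the 50th percentile filter 0, 1119 and 71, and the array set as a term 6, 0 and 0. No filter gave 3 in water deprivation minus control, and the low set alone 0. In water minus food deprivation, quantile normalization gave 106, median centring 101 and the high set alone 82. The replicate block gave 0 in water deprivation minus control and 20 in water minus food deprivation and ended the calls of Apoe, Lmf2 and Prkaa2 (adjusted p = 0.0606, 0.0782 and 0.0637) but changed no call of the 5 genes. The choroid plexus covariate, added after seeing the data, gave 8 and 492 in those 2 comparisons.

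Pnpla2 changed sign with median centring in food deprivation minus control (-0.026) and water minus food deprivation (0.002), with array weights in water deprivation minus control (0.126) and water minus food deprivation (0.037), and in water deprivation minus control with the array set or within the low set (0.139). Lipe passed the limma test in food deprivation minus control with array weights (0.612, adjusted p = 0.00442) and with only the 10 arrays compared (0.579, adjusted p = 0.00564), and in water minus food deprivation with array weights (-0.631, adjusted p = 0.0166). It changed sign in water deprivation minus control with array weights (-0.019), in all 3 comparisons with the array set (-0.243, -0.346 and 0.102), within the low (-0.243) and high sets (0.102), and on its other probe set (-0.082, -0.171 and 0.089). Lpl changed sign with array weights in water minus food deprivation (0.341), with the array set (-0.048, -0.435 and 0.387), within the low (-0.048) and high sets (0.387), and with the choroid plexus covariate (-0.178, -0.183 and 0.005). Apoe was at -0.056 with quantile normalization, and Lmf2, Plin4 and the other Pdk4 probe set were at 0.005, -0.157 and -0.048 with the array set. The cause of these changes was not tested.

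Leaving out each array in turn, in the fits of 3 groups, gave the following lowest and highest values. Angptl4 ran from 0.367 to 0.568, 0.72 to 0.921 and -0.376 to -0.327. G0s2 ran from -0.899 (without water-deprived array 3) to -0.685, -0.580 to -0.488 and -0.347 to -0.133. Lpl ran from -0.157 (without control array 2) to 0.834, -0.023 to 0.875 and -0.376 to 0.399, Pnpla2 from -0.093 to 0.082, 0.016 to 0.128 and -0.167 to 0.007, and Lipe from -0.062 to 0.242, 0.502 to 0.645 and -0.641 to -0.337, the lowest of these without water-deprived array 2 (limma adjusted p = 0.0499). Counts of probe sets ran from 0 to 2, 807 (without control array 1) to 1521 and 0 to 771 (without water-deprived array 1). With the array set as a term too, a choice made after seeing the data, Angptl4 ran from 0.390 to 0.591, 0.777 to 0.978 and -0.406 to -0.362, G0s2 from -0.840 to -0.440, -0.435 to -0.034 and -0.477 to -0.334, Lpl from -0.653 to 0.846, -1.040 to 0.459 and -0.057 to 0.831, Pnpla2 from 0.064 to 0.272, 0.304 to 0.623 and -0.483 to -0.165, and Lipe from -0.320 to -0.177, -0.544 to -0.147 and -0.096 to 0.301, with counts of 0 to 13, 0 to 1 and 0 to 4. Median centring shifted the median of all probe sets in food deprivation minus control from 0.046 to -0.055 on the log2 scale.

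Food deprivation and control lie in different array sets, so that difference and the set cannot be told apart except through 5 water-deprived arrays. Arrays carry pools of 5 animals, and their number limits the precision.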
